A study of Mus musculus with 16 samples.

Results

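In mouse embryonic stem cells with an inducible RAF kinase, 89 of 12215 tested genes stood higher at 2 h of induction than before it and lower again at 4 h. They were chosen on their measured levels in the 0h, 2h and 4h libraries. Levels are CPM, the reads of a gene per 1000000 reads of its library after edgeR's TMM scaling, and L is log2 of a group's mean CPM plus 1. A gene was kept when its mean at 2h was at least 5 CPM, L was higher at 2h than at 0h by at least 0.3, and L was lower at 4h than at 2h by at least 0.3. Of the 12215 genes, 8583 met the level criterion, 1032 of these also met the rise criterion, and 96 also met the fall criterion. Symbols starting with Egr, Fos, Jun, Ier, Klf, Myc, Id, Mt- or Gm were set aside, which removed Egr1, Fos, Jun, Klf3, Gm6284, Gm37194 and Gm37472 and left 89. All 89 had passed the filter on low counts, which was applied before the choice. Of them, 83 were protein-coding, 3 antisense RNAs, 1 a lincRNA, 1 a processed transcript and 1 a model still to be experimentally checked. Because the choice used the 2h, 0h and 4h levels, the differences between these groups are given for the 89 genes as a description, without a test, except as follows. Genes chosen in 1 clone were tested in the other, members among them, and the size of the response was compared between the clones.

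The cells were the line CRAFR26, which carries a construct of the kinase c-RAF that switches on ERK signalling when 4-hydroxytamoxifen (4OHT) is added. They were kept in 2i/LIF medium, that is N2B27 with the GSK3 inhibitor CHIR99021 at 3 µM, the MEK inhibitor PD0325901 at 1 µM and LIF at 1000 U/ml. In all 4 groups the MEK inhibitor was replaced for 48 h by the FGF receptor inhibitor PD17 (PD173074) at 250 nM. The 0h group received no 4OHT, the 2h group 250 nM 4OHT for 2 h, and the 4h group 250 nM 4OHT for 4 h. The rev group received 250 nM 4OHT for 4 h and then a MEK inhibitor for a further 2 h, at a dose the labels do not give. Each group held 4 libraries, 2 from clone 4 and 2 from clone 8 of the same line. Unless said otherwise, the models held a term for clone. The p-values below thus measure the spread between libraries once the mean difference between the clones is taken out. No group received the vehicle of 4OHT alone and none was given 4OHT for 6 h, so an effect of the vehicle, and in rev of the extra time, cannot be told apart from the treatment.

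ERK is the last kinase of the RAF, MEK and ERK cascade, and its activation in many cell types is followed by a wave of immediate-early transcripts that need no new protein to be made and often decay quickly. Part of that wave encodes inhibitors of the cascade and proteins that destabilise short-lived transcripts. In the Hippo pathway, the kinases LATS1 and LATS2 phosphorylate the coactivators YAP and TAZ and keep them out of the nucleus, where they would act on genes through TEAD factors, and several YAP targets encode restraints on YAP itself. In embryonic stem cells FGF and ERK signalling promotes the exit from the naive state, which the 2i inhibitors hold back.

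Library totals ranged from 2172651 to 12680303 reads, and 6530 to 51759 reads per library fell in the 89 genes. The 8 most abundant gene models took 42.0% to 80.4% of a library's reads, with the highest share in the library rev clone 8 replicate 2, whose TMM factor of 0.463 was the lowest of the 16. A signal of 3 reads corresponded to 0.213 to 1.35 CPM, and such floors cover counting error only. All 12 naive embryonic stem cell markers (such as Pou5f1, Sox2 and Nanog) were tested, and none was among the 89 genes. Klf2 and Klf4 of that list could not be, since Klf symbols were set aside. With 89 of 12215 tested genes chosen, nothing is read from this count. Their summed level was 2097 to 2558 CPM at 0h, 2168 to 2804 at 2h, 1949 to 2443 at 4h and 2266 to 2819 in rev. Single markers moved both ways: 3 of the 12 (Nanog, Prdm14 and Tfcp2l1) were lower and 0 higher at 4h than at 2h, and 6 were higher and 3 lower in rev than at 4h. The 7 markers of 2-cell-like cells in the table summed to 3.53 to 6.79 CPM at 0h, 7.90 to 9.59 at 2h, 11.96 to 13.7 at 4h and 4.97 to 13.5 in rev, so that 0h, 2h and 4h did not overlap. Of the 4 tested, 1 was higher at 2h and 3 at 4h than at 0h. The 10 markers of formative or primed epiblast summed to 66.1 to 87.3 CPM at 0h, 64.0 to 97.7 at 2h, 85.2 to 126 at 4h and 75.1 to 99.0 in rev, and of 9 tested, 4 were higher and 0 lower at 4h than at 2h. The 8 of fibroblasts summed to 8.36 to 13.04 CPM at 0h, 6.57 to 10.5 at 2h, 4.21 to 8.47 at 4h and 6.40 to 10.4 in rev, with Dcn and Postn at 0 in all libraries. Of the 3 tested, 1 was higher (Col1a1, 1.34 against 0.52 CPM) and 1 lower (Pdgfrb, 3.89 against 8.05 CPM) at 2h than at 0h. At 4h, 0 were higher and 1 lower than at 0h (Pdgfrb, 2.18 CPM). The 9 of primitive endoderm (36.5 to 75.4 CPM) and the 8 of trophectoderm (35.3 to 53.9) overlapped between all groups. Of the 3 and 6 tested, 0 and 3 were higher and 1 of each lower at 4h than at 0h: Cdx2, Eomes and Gata3 were higher (log2 fold changes 1.95, 0.98 and 1.33), and Tfap2c, which makes up most of the trophectoderm sum, was lower (-0.73). The part of these marker levels in the results below was not tested. In such bulk samples, fewer cells of a type and less RNA per cell cannot be told apart.

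Most of the 89 genes changed by less than a doubling, and a minority made a sharp peak. The mean CPM at 2h was 1.24 to 6.31 times that at 0h, with a median of 1.5. It was at least 2 times the 0h level in 16 genes, 1.5 to under 2 times in 26 and under 1.5 times in 47. The mean at 2h was 1.24 to 2.24 times that at 4h, with a median of 1.34. The share of the CPM gained by 2h that was gone at 4h had a median of 77.5%. In 21 genes the 4h mean was at or below the 0h mean, in 59 others at least 50% of the gain was gone, and in 9 less than 50% was gone. Every 2h library was above every 0h library in 51 of the 89 genes, against 8.83% of all tested genes, and above every 4h library in 39, against 4.03%. Both held in 32 genes, against 0.622% of all tested genes. As the choice fixed these directions, nothing is read from those shares.

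**Figure D1:**
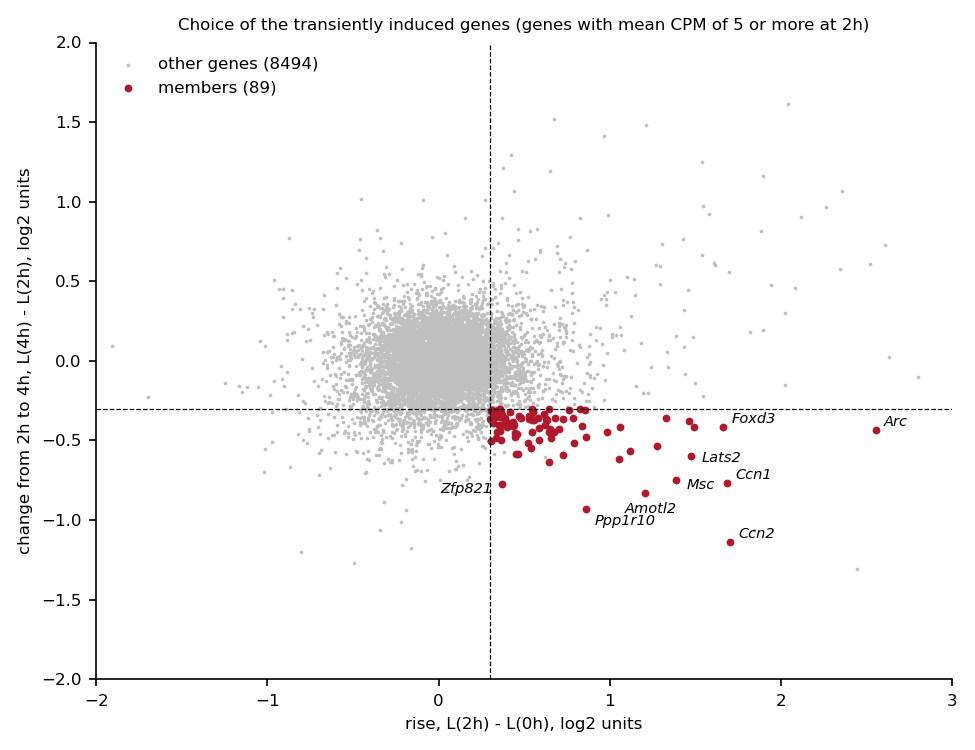
Rise from 0h to 2h (horizontal, L at 2h minus L at 0h) and change from 2h to 4h (vertical, L at 4h minus L at 2h) of the 8583 genes with a mean of at least 5 CPM at 2h, in log2 units. Red points are the 89 chosen genes, grey points the other 8494, dashed lines the limits of 0.3 and -0.3, and the grey points in the lower right corner beyond both lines were removed by symbol. 9 genes lie outside the axes. Ccn2 lies lowest among the red points and Arc farthest right.

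Genes on either side of each limit had nearly the same values, given here for genes that met the other criteria. The lowest 2h levels inside were 5.07 CPM (Grk5), 5.45 (Sh3d21) and 5.55 (Scml2), and the highest outside were 4.88 (Pex16), 4.85 (Slc22a13b-ps) and 4.75 (Ak9). The smallest rises inside were 0.301 (Tmem170b), 0.306 (Ulk1) and 0.309 (Grk5), and the largest outside 0.297 (Axin2), 0.285 (Pradc1) and 0.282 (Trmt112). The smallest falls inside were -0.302 (Ajuba), -0.304 (Tor1aip1) and -0.304 (Taf5l), and the largest outside -0.2995 (Mafg), -0.294 (Vegfc) and -0.291 (Maml1). Grk5 stood near the limits of both level and rise.

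The highest peaks, measured as the smaller of the rise and the fall in L, included 4 genes tied to the Hippo pathway: Ccn2, Amotl2, Ccn1 and Lats2. In the values that follow, libraries are given in the order clone 4 replicate 1, clone 4 replicate 2, clone 8 replicate 1 and clone 8 replicate 2. Ccn2 (ENSMUSG00000019997, chr10:24595442-24598683, GRCm38), a secreted matricellular protein and a standard readout of YAP, stood at 16, 22.7, 20.7 and 18.4 CPM at 0h, 77.0, 76.6, 59.2 and 49.5 at 2h, 37.7, 30.7, 23.2 and 25.3 at 4h and 32.3, 30.6, 25.5 and 31.6 in rev. All 4 libraries at 2h lay above all others, while the 4h and rev libraries overlapped and all of them lay above the 0h libraries. The means were 19.5 ± 2.88, 65.6 ± 13.6, 29.2 ± 6.51 and 29.999 ± 3.06 CPM (mean ± SD, n = 4 libraries each, as in all such values). Its exons overlap the antisense model Gm15270, and as the strand setting of the counting is not given in the sources used here, reads from the pair cannot be told apart.

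Ccn1 (ENSMUSG00000028195, chr3:145646976-145649981), a relative of Ccn2 and also a YAP target, stood at 3.53, 2.83, 4.34 and 3.42 CPM at 0h, 17.2, 12.7, 12.6 and 11.8 at 2h, 6.6, 7.94, 7.79 and 7.89 at 4h and 3.52, 4.56, 5.80 and 8.56 in rev. The 0h, 4h and 2h libraries formed 3 separate steps, and the rev libraries spread from the 0h level to above the 4h level, with both clone 4 libraries below both clone 8 libraries. Amotl2 (ENSMUSG00000032531, chr9:102716672-102733418), an angiomotin that binds YAP and holds it in the cytoplasm, stood at 31.5, 33.7, 25.2 and 26.0 CPM at 0h, 86.0, 71.4, 58.8 and 58.3 at 2h, 41.2, 41.8, 35.3 and 34.5 at 4h and 38.6, 40.6, 38.9 and 39.7 in rev. Its 2h libraries lay above all others, and its rev libraries all fell within the range of the 4h libraries. Lats2 (ENSMUSG00000021959, chr14:57689662-57758388), one of the kinases that inhibit YAP, stood at 1.09, 0.895, 1.61 and 2.46 CPM at 0h, 6.21, 6.13, 5.49 and 6.11 at 2h, 4.29, 3.39, 3.61 and 3.16 at 4h and 1.39, 1.52, 1.99 and 3.61 in rev. Again the 0h, 4h and 2h libraries did not overlap. Lats2 rested on few reads, between 4 and 23 per library at 0h and 14 to 86 at 2h, and its exons overlap the same-strand model Gm49361.

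Other Hippo genes among the 89 moved less. Ajuba, a LIM protein that restrains LATS kinases, had means of 53.2 ± 6.69, 95.2 ± 13.6, 77.0 ± 3.95 and 77.1 ± 1.67 CPM at 0h, 2h, 4h and in rev. Lats1, the second LATS kinase, had 18.8 ± 1.46, 27.5 ± 1.84, 21.1 ± 0.909 and 19.1 ± 1.22 CPM in the same order. Vgll4, which competes with YAP for TEAD factors, had 5.56 ± 0.843, 8.84 ± 0.971, 6.35 ± 1.2 and 7.15 ± 1.78 CPM. Per kilobase of exon, the 2h levels were 26.1 CPM for Ajuba, 22.9 for Ccn2, 10.9 for Amotl2, 6.72 for Ccn1, 3.77 for Lats1 and 0.859 for Lats2, so the sharpest peaks belonged to transcripts of very different abundance. A list of 33 Hippo and YAP genes was drawn up after these values had been seen, and its count is a description. Of its 32 tested genes 7 were among the 89. The 25 others are what the choice left after taking genes that rose at 2h, and 5 of them were higher and 1 lower at 2h than at 0h (edgeR adjusted p under 0.05, with 11.4% and 9.68% for all tested genes), from which nothing is read. The 1 lower was Amotl1, with 31.1, 23.1 and 19.5 CPM at 0h, 2h and 4h. At 4h against 2h, 1 of the 25 was higher (Tead4, 38.9 against 23.4 CPM) and 1 lower (Taok3, 2.70 against 4.91 CPM). Yap1 itself was at 76.7 CPM at 0h and 79.9 at 2h.

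TEAD factors bind the letters GGAATGT or, on the other strand, ACATTCC. Among the promoter windows of the 77 genes matched by symbol in RefSeq (118 windows of 250 bases before to 50 bases after a start, GRCm38.p6), 5 windows (4.24%) held these letters, against 3.85% of all 32851 windows and 2.61% of the 12003 windows of tested genes. The motif was added to the search after the gene names were known. The 5 genes were Ccn1, Amotl2, Ajuba, Sgk1 and Wdr45. The windows of 3 Hippo genes and of Sgk1 are shown around the match, 5′ to 3′ on the strand of the gene, with the TEAD letters in capitals, since these members share the letters and a peak at 2h.
Ccn1, chr3:145650053-145650119, minus strand: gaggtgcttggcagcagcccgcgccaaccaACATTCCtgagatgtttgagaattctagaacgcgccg
Amotl2, chr9:102717728-102717754, plus strand: tgaaactctcACATTCCtggcatagca
Ajuba, chr14:54577812-54577878, minus strand: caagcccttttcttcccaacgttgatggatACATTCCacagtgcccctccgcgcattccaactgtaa
Sgk1, chr10:21993772-21993838, plus strand: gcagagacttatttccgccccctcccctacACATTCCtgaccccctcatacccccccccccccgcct
In all 4 the letters read ACATTCC on the gene's own strand, 104, 66, 187 and 88 bases before the RefSeq start. Wdr45, not shown, holds the other reading, GGAATGT, on its own strand, 209 bases before the start and once more after it, so the 5 genes do not share an orientation. A match of letters is not evidence of binding, and the Amotl2 stretch, cut shorter, lies in an annotated exon of Amotl2.

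**Figure D2:**
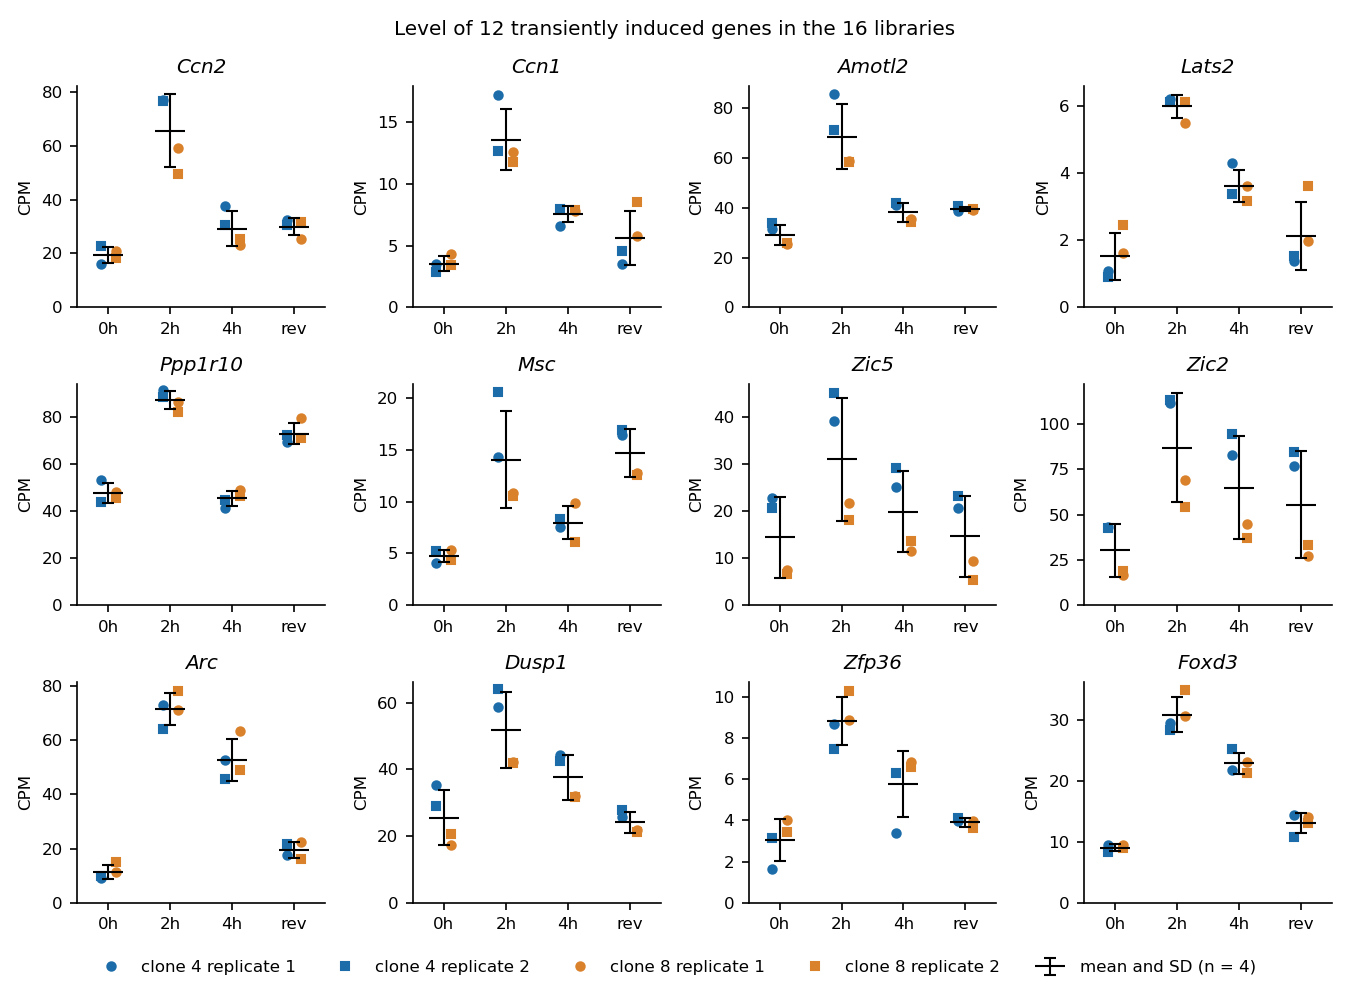
CPM of 12 of the 89 genes in the 16 libraries, by group (0h, 2h, 4h, rev), with a panel and an axis from 0 for each gene. Blue points are clone 4, orange points clone 8, circles replicate 1 and squares replicate 2. The black line and bar are the mean and SD of 4 libraries. The 2h group has the highest mean in every panel except that of Msc, where the rev mean of 14.7 CPM is above the 2h mean of 14.1.

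Among feedback and decay factors, Dusp1 (ENSMUSG00000024190, chr17:26505590-26562128), a nuclear phosphatase that inactivates MAP kinases, stood at 35.3, 28.9, 17.2 and 20.7 CPM at 0h, 58.8, 63.9, 42.2 and 41.8 at 2h, 44.2, 42.4, 32.1 and 31.6 at 4h and 25.6, 27.8, 21.9 and 21.2 in rev. Clone 4 libraries were higher than clone 8 libraries in every group, and within each clone the 2h libraries lay above all others. The Dusp1 exons overlap Ergic1 on the other strand. Dusp14, another dual-specificity phosphatase, stood at 14.4, 12.5, 22.0 and 16 CPM at 0h, 14.4, 16.6, 32.5 and 32.7 at 2h, 9.02, 10.4, 22.2 and 22.9 at 4h and 14.1, 19.3, 38.6 and 39.2 in rev. In clone 4 the 2h and 0h libraries met at 14.4 CPM, while in clone 8 both 2h libraries lay above both 0h libraries. Zfp36 (ENSMUSG00000044786, chr7:28376784-28380253), known as tristetraprolin, which binds AU-rich elements and promotes decay of the transcripts that carry them, stood at 1.63, 3.13, 4.02 and 3.42 CPM at 0h, 8.67, 7.44, 8.87 and 10.3 at 2h, 3.41, 6.31, 6.84 and 6.58 at 4h and 3.94, 4.13, 3.98 and 3.61 in rev. Its 2h libraries lay above those of the other groups, and the 4h and 0h libraries overlapped through 1 low library at 4h. Zfp36 overlaps the antisense model Gm44710.

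Arc, known as an activity-regulated gene of neurons, had the largest rise of the 89. It stood at 8.96, 9.85, 11.4 and 15.1 CPM at 0h, 72.9, 63.9, 71.0 and 78.0 at 2h, 52.7, 45.7, 63.4 and 48.9 at 4h and 17.5, 21.5, 22.5 and 16.2 in rev, with 31.2% of the gain gone at 4h, the smallest share among the 89. The 2h libraries lay above the 4h libraries by a small margin, and both lay far above 0h and rev. Csrnp1, a nuclear protein of the immediate-early response, had 11.3 ± 1.2, 29.9 ± 3.82, 23.0 ± 5.58 and 12.3 ± 1.67 CPM at 0h, 2h, 4h and in rev. Its 4h level overlapped that at 2h, and 1 clone 8 library at 4h stood at 14.7 CPM against 25.1 to 26.8 in the other 3. Sgk1, the serum- and glucocorticoid-regulated kinase, stood at 157, 158, 247 and 240.2 CPM at 0h, 236, 265, 289 and 304 at 2h, 177, 168, 225 and 230.0 at 4h and 133, 127, 184 and 183 in rev. Clone 8 was higher than clone 4 in every group, and within each clone the 2h libraries were the highest and the rev libraries the lowest.

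Plk2, a polo-like kinase, had 17.9 ± 4.61, 26.6 ± 5.72 and 19.3 ± 1.49 CPM at 0h, 2h and 4h. Pim1, a serine/threonine kinase known as a cytokine target, had 77.7 ± 5.95, 97.4 ± 4.18 and 76.4 ± 4.03 CPM. Pnrc1, a nuclear receptor coactivator, had 30.2 ± 4.72, 54.9 ± 2.99 and 41.1 ± 0.897 CPM. The 2h libraries lay above the 0h libraries in each of these 3 genes.

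The cyclic AMP response element, TGACGTCA on either strand, was present in 7 of the 118 windows (5.93%), against 1.79% of all windows and 3.10% of those of tested genes. The 7 genes were Dusp1, Foxd3, Plk2, Zfp367, Slc25a25, Ift57 and Zfp868. The SRF binding site known as the CArG box (CC, 6 bases A or T, GG) was in 2 windows (1.69% against 1.63% of all), those of Zfp36 and Aspa. The stretches of 3 feedback or developmental genes with the first motif and of Zfp36 with the second are shown, with the motif in capitals, because these elements are known in immediate-early promoters.
Dusp1, chr17:26508578-26508645, minus strand: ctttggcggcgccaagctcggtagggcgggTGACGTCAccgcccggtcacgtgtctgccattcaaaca
Plk2, chr13:110394952-110395019, plus strand: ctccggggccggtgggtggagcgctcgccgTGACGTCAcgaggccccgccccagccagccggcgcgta
Foxd3, chr4:99656049-99656103, plus strand: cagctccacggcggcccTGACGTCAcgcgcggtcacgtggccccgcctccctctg
Zfp36, chr7:28379267-28379296, minus strand: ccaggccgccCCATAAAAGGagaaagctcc
The matches began 143, 62, 233 and 58 bases before the RefSeq start, and the Zfp36 stretch lies in an annotated exon of Zfp36. The AP-1 letters TGAGTCA or TGACTCA were in 4.24% of the 118 windows, against 5.20% of all windows and 3.37% of those of tested genes. The ETS letters CCGGAAGT were in 5.08% (3.89% of all and 8.20% of tested), the ETS core GGAA in 95.8% (96.0% and 95.4%) and the shorter element TGACG in 28.8% (20.8% and 30.9%). The NF-kB site was in 2.54% (4.51% and 5.06%), and the EGR letters GCGTGGGCG were in none of 118 (0.612% and 1.21%). The shorter element also counts every full element.

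Several members encode transcription factors. Zic2 and Zic5 encode zinc-finger proteins and lie side by side on chromosome 14 on opposite strands, 9757 bases apart (Zic5 ENSMUSG00000041703, chr14:122456795-122465677; Zic2 ENSMUSG00000061524, chr14:122475435-122479852). Zic2 stood at 42.9, 42.7, 16.4 and 18.9 CPM at 0h, 112, 113, 69.1 and 54.0 at 2h, 83.2, 94.6, 45.0 and 36.8 at 4h and 77.1, 84.7, 27.2 and 33.4 in rev. Zic5 stood at 22.8, 20.7, 7.40 and 6.63 CPM at 0h, 39.1, 45.1, 21.8 and 18.1 at 2h, 25.1, 29.2, 11.6 and 13.7 at 4h and 20.7, 23.2, 9.28 and 5.41 in rev. Both were higher in clone 4 than in clone 8 in every group. The 2h libraries of Zic2 lay above all its 0h libraries, the other groups overlapped across clones, and within each clone the 2h libraries of both genes lay above the 0h and the 4h libraries. Foxd3, a forkhead factor of pluripotent and neural crest cells, stood at 9.51, 8.35, 9.49 and 8.98 CPM at 0h, 29.5, 28.5, 30.7 and 35.0 at 2h, 21.9, 25.2, 23.2 and 21.3 at 4h and 14.5, 10.9, 14.1 and 13.1 in rev. Here the clones overlapped and the 4 groups formed 4 separate steps.

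Msc, the basic helix-loop-helix repressor musculin, stood at 4.07, 5.22, 5.31 and 4.38 CPM at 0h, 14.4, 20.6, 10.8 and 10.5 at 2h, 7.59, 8.29, 9.87 and 6.05 at 4h and 16.4, 16.9, 12.8 and 12.6 in rev. Its 2h and rev libraries overlapped and lay above all 0h and 4h libraries. Msc overlaps the antisense model Gm9947. Hes1, a Notch target and repressor whose transcript is short-lived, had 27.4 ± 4.99, 37.5 ± 3.51, 28.0 ± 8.32 and 23.6 ± 6.24 CPM at 0h, 2h, 4h and in rev, and its 2h libraries lay above all 0h and rev libraries, overlapped those at 4h across clones, and lay above those at 4h within each clone.

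Ppp1r10 (ENSMUSG00000039220, chr17:35916434-35932283), also called PNUTS, which directs protein phosphatase 1 to the nucleus, was the sharpest peak among RNA and chromatin factors. It stood at 53.2, 43.7, 48.2 and 45.5 CPM at 0h, 91.8, 88.9, 86.7 and 82.4 at 2h, 41.2, 44.7, 49.2 and 46.6 at 4h and 69.4, 72.3, 79.5 and 71.2 in rev. The 0h and 4h libraries overlapped, the rev libraries lay above both, and the 2h libraries lay above all. Dido1, a reader of histone methylation, had 88.8 ± 4.14, 187 ± 10.7, 139 ± 2.03 and 147 ± 7.37 CPM at 0h, 2h, 4h and in rev, and every 2h library lay above, and every 0h library below, all 4h and rev libraries. Smg5, a factor of nonsense-mediated decay, had 75.4 ± 7.05, 111 ± 5.89, 85.3 ± 5.28 and 104 ± 7.06 CPM, and its rev libraries overlapped those at 2h. Kmt5b, a histone methyltransferase, and Taf5l, a subunit of a histone acetyltransferase complex, had 2h means of 66.7 and 87.6 CPM, 4h means of 53.8 and 70.8, and rev means of 64.6 and 84.9.

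The most abundant of the 89 at 2h was Ticrr, a factor of replication initiation, with 215 ± 14.9, 343 ± 54.7, 251 ± 30.3 and 228 ± 17.3 CPM at 0h, 2h, 4h and in rev. It overlaps Kif7 on the other strand. Ulk1, the kinase that starts autophagy, stood at 279, 230.5, 224 and 225 CPM at 0h, 274, 259.7, 308 and 345 at 2h, 189, 212, 260.1 and 292 at 4h and 298, 339, 374 and 402 in rev. Its groups at 0h, 2h and 4h overlapped, and in clone 4 neither 2h library was above the higher 0h library. Mir17hg, the host transcript of a microRNA cluster, was 14.2 ± 6.62, 22.8 ± 13.9, 16.4 ± 9.43 and 24.5 ± 14.7 CPM, with clone 4 above clone 8 in each group.

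The transient pattern was tested where the choice had not looked. The rule was applied to the libraries of 1 clone, and the genes it kept were tested in the other clone with an edgeR quasi-likelihood model of the 8 group and clone cells, 2 libraries each. Clone 4 alone gave 213 genes. In clone 8, 61 of these were higher at 2h than at 0h (28.6%, against 12.8% of the 8402 genes that met the level criterion in clone 4 and 9.79% of all tested genes), and 14 were lower at 4h than at 2h (6.57%, against 1.08% and 0.827%). Both calls were made for 13 of the 213 (6.10%, against 0.286% and 0.229%). Clone 8 alone gave 116 genes. In clone 4, 35 of these were higher at 2h (30.2%, against 6.05% of the 8387 eligible genes and 4.95% of all), 20 were lower at 4h than at 2h (17.2%, against 1.76% and 1.44%), and both calls were made for 14 (12.1%, against 0.286% and 0.246%). At 4h against 0h, 35 of the 213 were higher in clone 8 (16.4%, against 15.3% of eligible and 11.9% of all genes) and 11 lower (5.16%, against 9.3% and 9.28%). Of the 116, 27 were higher in clone 4 (23.3%, against 14.1% and 11.6%) and 6 lower (5.17%, against 10.1% and 10.2%). By sign alone, 114 of the 213 and 85 of the 116 went up and then down in the other clone, 53.5% and 73.3%, against 25.6% of eligible genes in each.

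The genes called in both comparisons in the other clone numbered 19, and 8 were called both ways: Ccn2, Ppp1r10, Amotl2, Zic5, Ubald1, Ticrr, Dido1 and Smg5. All 19 were among the 89, which the choice nearly fixed, since it used the means of both clones. For Ccn2, the log2 fold change in clone 8 was 1.48 for 2h against 0h (edgeR adjusted p = 7.88e-11) and -1.17 for 4h against 2h (adjusted p = 8.00e-07). In clone 4 the same values were 1.94 (adjusted p = 2.35e-12) and -1.17 (adjusted p = 7.31e-08). Ppp1r10 fell from 2h to 4h by 0.82 on the log2 scale in clone 8 (adjusted p = 3.88e-06) and by 1.08 in clone 4 (adjusted p = 1.95e-08). Amotl2 fell by 0.74 in clone 8 (adjusted p = 3.51e-05) and by 0.95 in clone 4 (adjusted p = 7.31e-08). Ccn2, Ppp1r10 and Amotl2 are named as the highest peaks of the 89, a ranking that used both clones. Their p-values are therefore a description and not an independent test. Ccn1, Msc, Zfp367, Arc, Dusp1 and Pnrc1 were chosen in clone 8 and called both times in clone 4 alone, and Zic2, Sgk1, Slc43a1 and Ist1 were among those called the other way round. Of the 89, 74 met the rule in clone 4, 46 in clone 8, 37 in both and 6 in neither. These counts rest on 2 libraries a cell: the 13 became 4 without the 4h clone 8 replicate 2 library, and the 14 became 4 without 2h clone 4 replicate 1. With library size alone in place of TMM, the rule itself gave other genes, 39 in clone 4 and 231 in clone 8. Of these, 1 and 0 were called both ways in the other clone (against 0.0118% and 0% of eligible genes), 5 and 20 were higher at 2h (12.8% and 8.66%, against 0.94% and 0.939%), and 1 and 0 were lower at 4h (2.56% and 0%, against 0.047% and 0.0587%).

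**Figure D3:**
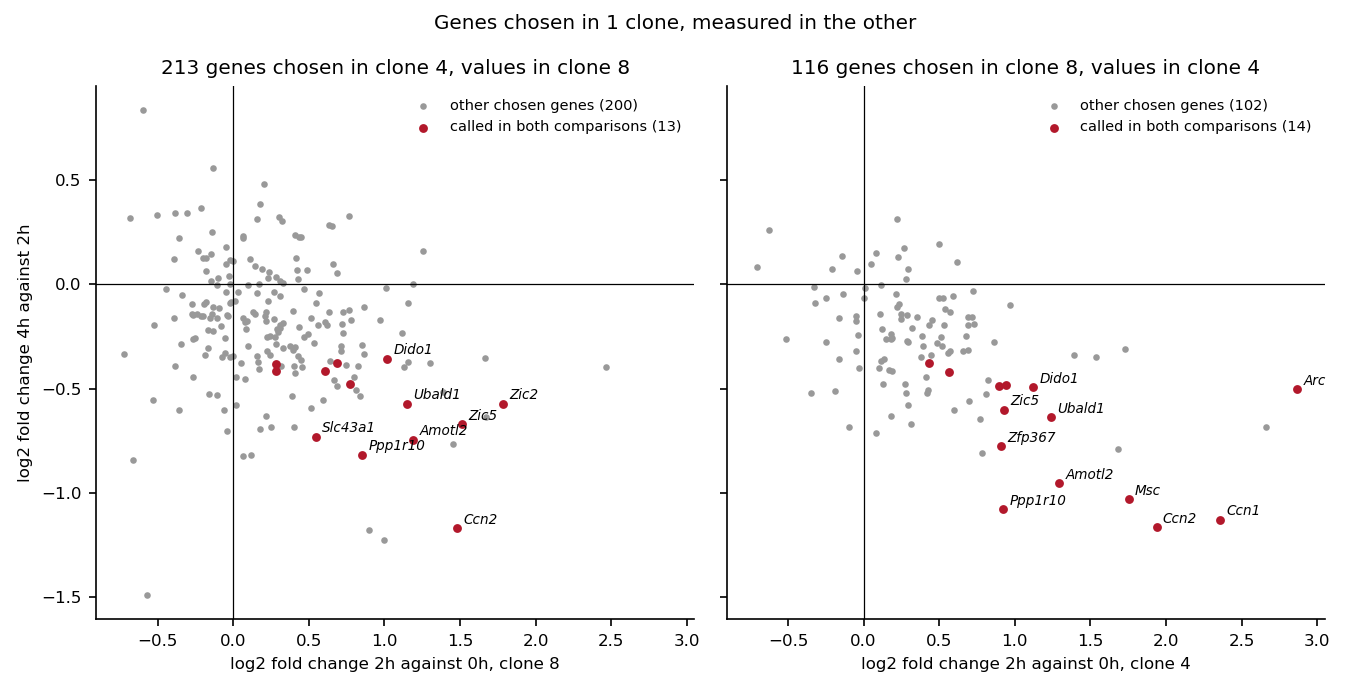
Log2 fold changes of 2h against 0h (horizontal) and of 4h against 2h (vertical) in the clone that did not choose the genes: 213 genes chosen in clone 4 and measured in clone 8 (left), and 116 chosen in clone 8 and measured in clone 4 (right). Red points are the 13 and 14 genes called in both comparisons, grey points the rest, and Ccn2 lies low on the right in both panels.

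The size of the response did not pass a test of difference between the clones for any of the 89 genes, for 2h against 0h, 4h against 2h or rev against 4h (0 genes each in the edgeR interaction test, and 0 with DESeq2). At an unadjusted p under 0.05 there were 10, 6 and 8 genes (11.2%, 6.74% and 8.99% of the 89, against 10.1%, 4.26% and 6.03% of all tested genes). Over all genes the edgeR test called 0.0409% higher and 0.0491% lower in clone 8 for 2h against 0h, 0.0246% and 0.00819% for 4h against 2h, and 0.00819% and 0% for rev against 4h. The smallest adjusted p for 2h against 0h was that of Ulk1, with log2 fold changes of 0.08 in clone 4 and 0.54 in clone 8 (difference 0.46, SE 0.15, edgeR adjusted p = 0.272). With 2 libraries a cell, a difference that misses the threshold does not show that the clones respond alike.

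The level itself did differ between clones. Over all groups, 11 of the 89 genes were higher and 29 lower in clone 8 than in clone 4 (edgeR adjusted p under 0.05), against 15.4% and 13.7% of all tested genes, so 12.4% and 32.6% of the 89. The choice used means over both clones, and 74 of the 89 met the rule in clone 4 and 46 in clone 8. It may therefore favour genes that are higher in clone 4, which was not tested, and these counts are a description. Lower in clone 8 were Bglap3 (log2 fold change -1.93, adjusted p = 5.06e-14), Mir17hg (-1.48, adjusted p = 4.32e-12), Zic5 (-1.25, adjusted p = 5.17e-13) and Zic2 (-1.14, adjusted p = 4.08e-14). Higher in clone 8 were Dusp14 (1.04, adjusted p = 1.09e-10), Ak4 (0.58, adjusted p = 8.12e-10), Hes1 (0.49, adjusted p = 4.38e-06) and Sgk1 (0.44, adjusted p = 3.21e-08). Ccn2 and Amotl2 were lower in clone 8 by smaller amounts (-0.35 and -0.29, adjusted p = 6.10e-04 and 4.78e-04).

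The rev libraries, made after MEK inhibition, were not used by the choice, but the groups they are compared with were, and a gene picked for a low 4h or 0h level tends to stand higher in any other group, as one picked for a high 2h level tends to stand lower. In the edgeR test over all 16 libraries, 17 of the 89 were higher in rev than at 4h (19.1%, against 7.93% of all tested genes) and 10 were lower (11.2%, against 8.43%). The median log2 fold change of the 89 was 0.10, against 0.01 over all genes. Against 0h, 32 were higher in rev (against 12.4% of all genes) and 1 was lower (against 9.86%), with a median of 0.29 against -0.01. Against 2h, 0 were higher (against 5.13% of all genes; 0 with DESeq2 and 1 at an unadjusted edgeR p under 0.05) and 35 were lower (against 3.62%), with a median of -0.31 against -0.01. Chosen for a high 2h level, the 89 had to lean this way, so these values describe the genes and nothing is read from them. For genes chosen in 1 clone and tested in the other, the shares in rev against 4h lay near the background. In clone 8 they were 3.76% higher (2.74% of eligible and 2.41% of all genes) and 1.88% lower (3.53% and 2.8%), and in clone 4 6.03% higher (4.94% and 4.76%) and 7.76% lower (6.72% and 5.46%). For rev against 0h, 10.8% were higher in clone 8 (10% of eligible and 7.84% of all genes) and 1.88% lower (5.47% and 4.9%), while 14.7% were higher in clone 4 (8.27% and 6.75%) and 0.862% lower (4.48% and 3.83%).

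Scaling bore on the rev counts. With library size alone, the median over all genes moved to -0.41 for rev against 4h and that of the 89 to -0.32, and no member was called higher (against 0.467% of all genes). The 8 most abundant models took 65.9% ± 10.6 of reads in rev and 54.1% ± 9.31 at 4h (n = 4 each), and with that percentage as a covariate, added after seeing the data, 8 members were higher (against 4.72% of all genes in that fit). Without the library rev clone 8 replicate 2 the counts were 14 higher and 10 lower than at 4h (against 7.32% and 8.13% of all genes), and 30 higher and 2 lower than at 0h (against 10.2% and 8.73%).

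Several genes stood below their 4h level in rev. Arc was lower in rev than at 4h (log2 fold change -1.41, SE 0.11, adjusted p = 7.42e-12) and still higher than at 0h (log2 fold change 0.77, SE 0.13, adjusted p = 8.39e-05). Foxd3 did likewise, lower than at 4h (log2 fold change -0.78, SE 0.11, adjusted p = 3.92e-06) and higher than at 0h (log2 fold change 0.58, SE 0.13, adjusted p = 0.00153). Csrnp1 was lower than at 4h (log2 fold change -0.95, SE 0.14, adjusted p = 4.29e-06), and so was Dusp1 (log2 fold change -0.65, SE 0.10, adjusted p = 6.24e-06), and neither differed from 0h beyond the spread (adjusted p = 0.629 and 0.684). Pnrc1 was also lower than at 4h (log2 fold change -0.36, adjusted p = 0.00591). With library size alone the calls of Arc and Foxd3 above 0h, a group the choice used, were lost (0.48, adjusted p = 0.210, and 0.24, adjusted p = 0.547). Sgk1 was the single member below both 4h (log2 fold change -0.36, SE 0.07, adjusted p = 8.39e-04) and 0h (log2 fold change -0.35, SE 0.07, adjusted p = 9.29e-04).

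The calls of Lats2, Ccn1, Zic5 and Ubald1 below 4h depended on single libraries. Lats2 was lower in rev than at 4h (log2 fold change -1.02, SE 0.28, adjusted p = 0.00987), but without 4h clone 4 replicate 1 its log2 fold change was -0.87 (adjusted p = 0.0619) and without rev clone 4 replicate 1 it was -0.83 (adjusted p = 0.0919). Ccn1 (log2 fold change -0.59, SE 0.21, adjusted p = 0.0449) lost its call without any of 6 libraries, namely 4h clone 4 replicate 2, both 4h clone 8 libraries, both rev clone 4 libraries and rev clone 8 replicate 1, with values from -0.69 to -0.34 and adjusted p from 0.0546 to 0.366. Zic5 (log2 fold change -0.40, SE 0.13, adjusted p = 0.0299) lost it without any of 5, 4h clone 4 replicate 2, 4h clone 8 replicate 2, rev clone 4 replicate 1 and both rev clone 8 libraries (adjusted p from 0.0506 to 0.119). Ubald1 (log2 fold change -0.31, SE 0.10, adjusted p = 0.0334) lost it without any of 4, 4h clone 4 replicate 2, 4h clone 8 replicate 1 and both rev clone 4 libraries (adjusted p from 0.0574 to 0.150). The direction was the same in each of these. Without the clone term, all 4 lost the call against 4h (adjusted p from 0.0511 to 0.661), as did Dusp1 (-0.64, adjusted p = 0.0512) and Sgk1 (-0.35, adjusted p = 0.216), which also lost that against 0h. Ccn1 lost its call against 4h with the replicate block too (edgeR adjusted p = 0.0533), and with DESeq2 (adjusted p = 0.0717). Ubald1 lost it with DESeq2 (adjusted p = 0.0502) and with no filter on low counts (edgeR adjusted p = 0.0730). Lats2 lost it with the percentage of the 8 most abundant models as a covariate (edgeR adjusted p = 0.0634).

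Other genes had higher values in rev than at 4h and 0h. The choice used the 4h and 0h libraries and favours such a difference, and in the other clone the shares higher than at 4h lay near the background, so the genes are described here without reading a group from them. In 15 genes rev was higher than both 4h and 0h with no call against 2h (16.9% of the 89, and 0.819% of all tested genes). Msc led them (log2 fold change 0.90, SE 0.16, adjusted p = 8.18e-05 against 4h, and log2 fold change 1.59, SE 0.17, adjusted p = 3.13e-08 against 0h). Irak3, an inhibitor of Toll-like receptor signalling, was higher than at 4h (log2 fold change 0.86, SE 0.20, adjusted p = 0.00232), as were Dusp14 (log2 fold change 0.76, SE 0.13, adjusted p = 9.76e-05), Ulk1 (log2 fold change 0.58, SE 0.09, adjusted p = 3.45e-05) and Fbrsl1 (log2 fold change 0.53, SE 0.08, adjusted p = 2.19e-05). Ppp1r10 was higher than at 4h (log2 fold change 0.70, SE 0.08, adjusted p = 7.15e-08) and 0h (log2 fold change 0.63, SE 0.08, adjusted p = 5.48e-07). It was lower than at 2h (log2 fold change -0.25, SE 0.08, adjusted p = 0.0343), a call lost without any of the 2h libraries except clone 8 replicate 2 and without any of the rev libraries except clone 8 replicate 1 (values from -0.26 to -0.21, adjusted p from 0.0673 to 0.137). The rev libraries of Ulk1 ran from 298 to 402 CPM, against 189 to 292 at 4h. Of the 15 named genes called higher than at 4h, 6 (Dmpk, Dnah17, Kmt5b, Sh3d21, Slc43a1 and Taf5l) lost the call without at least 1 library, with the direction unchanged, while Msc, Irak3, Dusp14, Ulk1, Fbrsl1 and Ppp1r10 were called in each of those fits. With library size alone these 6 lost the call too (0.097 to 0.47, adjusted p from 0.174 to 0.765). Without the clone term Irak3 (0.84, adjusted p = 0.0722) and Dusp14 (0.80, adjusted p = 0.208) lost it, as did Irak3 with the percentage of the 8 most abundant models as a covariate (0.61, adjusted p = 0.0731). Ppp1r10 also lost its call above 0h with library size alone (0.30, edgeR adjusted p = 0.401). Its call below 2h was lost with library size alone (-0.57, edgeR adjusted p = 0.182) and without the clone term (-0.25, edgeR adjusted p = 0.101).

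In 8 genes rev was called above 0h and below 2h, with no call against 4h (8.99% of the 89, and 0.123% of all tested genes). A place between 0h and 2h is what the choice favours, and these p-values use the libraries that made it, so they are given as a description. Among the 8 were Ccn2, Amotl2, Ajuba, Dido1, Zic2, 6330410L21Rik and Cdca4. For Ccn2 the log2 fold change of rev was 0.00 against 4h (adjusted p = 0.995), 0.55 against 0h (adjusted p = 9.86e-04) and -1.14 against 2h (adjusted p = 5.55e-10). For Dido1 these values were 0.08 (adjusted p = 0.454), 0.73 (adjusted p = 2.26e-09) and -0.34 (adjusted p = 7.02e-04). The missing call against 4h does not show that the level was equal: for Ccn2 the SE of that difference was 0.11, and for Dido1 0.07. The call against 2h was lost for Ajuba without rev clone 4 replicate 1 (-0.25, adjusted p = 0.0866). For 6330410L21Rik it was lost without 2h clone 4 replicate 2, 2h clone 8 replicate 1 or rev clone 8 replicate 1 (-0.58 to -0.54, adjusted p from 0.0788 to 0.143). Both kept their direction. With library size alone, each of these 7 genes lost the call above 0h (0.042 to 0.69, adjusted p from 0.124 to 0.918), and without the clone term Zic2 and 6330410L21Rik lost both calls (adjusted p from 0.0836 to 0.519) and Ajuba that against 2h. The call below 2h was also lost with library size alone for Dido1 (-0.66, edgeR adjusted p = 0.126), Cdca4 (-0.66, adjusted p = 0.132) and Ajuba (-0.62, adjusted p = 0.150). In the remaining genes, 16 were called only as lower than at 2h (18% of the 89, and 0.761% of all), among them Zfp36, Ticrr, Hes1, Lats1 and Pim1. A further 6 were called only as higher than at 0h (6.74%, and 7.79% of all) and 32 in none of the 3 comparisons (36%, and 65.3% of all).

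**Figure D4:**
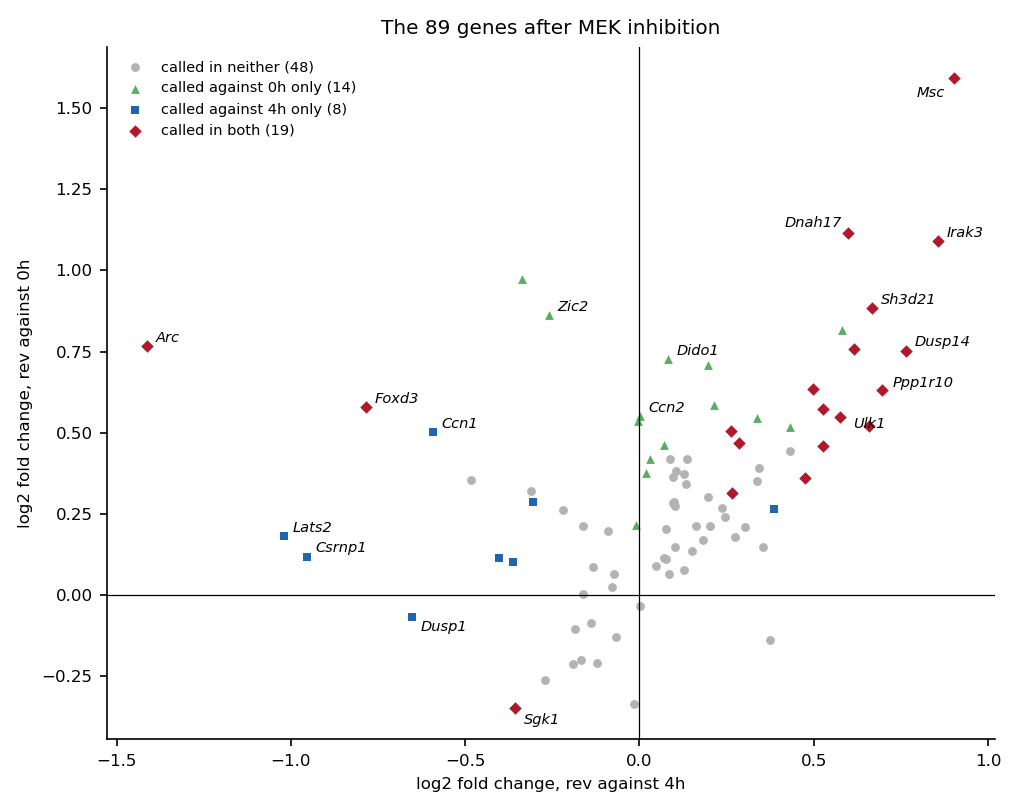
Log2 fold change of rev against 4h (horizontal) and against 0h (vertical) for the 89 genes. Red diamonds passed both tests (19 genes), blue squares only that against 4h (8), green triangles only that against 0h (14) and grey circles neither (48). Arc lies at the far left, Msc at the upper right and Sgk1 below 0 on both axes.

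Of 21 tested immediate-early transcription factors on a list drawn up for this work, Csrnp1 alone was among the 89, and the Egr, Fos, Jun, Ier, Klf and Myc genes of that list could not be, since their symbols were set aside. Of the other 20, 12 were higher (against 11.4% of all genes) and 0 lower (against 9.68%) at 2h than at 0h, 1 was higher (against 3.80%) and 3 lower (against 3.52%) at 4h than at 2h, and 2 were higher (against 7.93%) and 9 lower (against 8.43%) in rev than at 4h. These shares of all genes apply to each list below. The others are what remains once the choice has taken out genes that rose at 2h and fell at 4h, which lowers their counts in those directions, so the counts at 2h and 4h are descriptions. Those lower at 4h were Egr1, with 26.3, 478, 284 and 10.7 CPM at 0h, 2h, 4h and in rev, Fos, with 1.24, 11.2, 3.94 and 0.767, and Jun, with 1.13, 6.65, 2.66 and 1.38. Of 18 tested feedback inhibitors of RAF and ERK, Dusp1 and Dusp14 were among the 89. Of the other 16, 11 were higher and 1 lower at 2h than at 0h, 7 were higher and 0 lower at 4h than at 2h, and in rev 11 stood lower than at 4h and 1 higher (Lrig1, log2 fold change 0.36, edgeR adjusted p = 0.009). Of 12 decay factors, Zfp36 was among the 89. Of the other 11, 4 were higher and 1 lower at 2h than at 0h, 2 higher and 0 lower at 4h than at 2h, and 1 higher and 3 lower in rev than at 4h. Tob1 was the one lower at 2h (log2 fold change -0.46, edgeR adjusted p = 0.0037) and the one higher in rev than at 4h (0.87, adjusted p = 3.7e-06). The Zfp36 relatives Zfp36l1 and Zfp36l2 had 27.4 and 82.1 CPM at 2h and 38.0 and 91.5 at 4h, with no lower call. Of 18 targets of SRF, Ccn1 and Ccn2 were among the 89, and of the other 16, 9 were higher and 0 lower at 2h than at 0h, 1 higher and 0 lower at 4h than at 2h, and 0 higher and 1 lower in rev than at 4h. No gene of the lists of secreted growth factors (8 tested) and of NF-kB and stress genes (16 tested) was among the 89. As 89 of 12215 tested genes were chosen, nothing is read from this absence. Edn1, on the growth factor list, alone among these genes met the rise and fall criteria (1.01 and -0.51). It had 0.55, 2.13 and 1.19 CPM at 0h, 2h and 4h and was left out by the level criterion.

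In gene structure the 89 had fewer exons than the tested genes, with a median of 5 against 9 in the transcript taken for each gene. That was the longest coding transcript tagged basic in GENCODE with a 3′ untranslated region. Where there was none, it was the longest coding transcript or, failing that, the longest of any kind. The gene span (median 20185 against 22810 bases), the exon length (4456 against 4419 bases) and the GC content (50.9% against 50.04%) were close. The 3′ untranslated regions of the 83 coding genes had a median of 1355 bases, against 1173 in 11302 coding genes. The AU-rich heptamer TATTTAT was present in 38 of the 83 (45.8%), against 30.6% of the 11302, at 0.553 against 0.287 copies per kilobase. At least 3 copies of the pentamer ATTTA were present in 41.0% against 38.5%. Zfp36, Dusp1 and Zic5 each carried 3 heptamers, Ccn1, Plk2 and Lats1 2, and Ccn2, Amotl2, Ppp1r10 and Arc none. Exons of 36 of the 89 (40.4%) overlapped another gene model, against 36.0% of tested genes. Besides Zic2 and Zic5, 2 other pairs of members were neighbours, Smg5 with Bglap3 at 6277 bases and Ist1 with Zfp821 at 12285 bases. These features are described and were not tested.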

How the data were processed

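Ribosomal-RNA-depleted total RNA was sequenced from 16 libraries, 4 in each of 4 groups. The authors deposited 1 table of raw read counts per gene, in whole numbers and not normalized. Per the submitters' processing notes, STAR 2.5.3a and bcl2fastq 2.19.1 were used with the build mm10; the counting tool, annotation and strand setting are not given in the sources used here. Of 52636 gene identifiers 52489 matched a symbol in GENCODE M21 (GRCm38). From the deposited counts, R 4.3.3 and edgeR 4.0.16 gave the filter filterByExpr (12215 genes), TMM scaling, and quasi-likelihood F tests, two-sided, with group and clone as terms over all 16 libraries. Clone-wise contrasts used a model of the 8 group and clone cells. P-values were adjusted by Benjamini-Hochberg over all tested genes, and a call is an adjusted p under 0.05. DESeq2 1.42.0, other scalings, filters and thresholds, no clone term, a replicate block, removal of the 8 most abundant models and leaving out each library were tried as alternatives. No 2 libraries of the same group and clone agreed within sampling noise (chi-square per degree of freedom 2.82 to 70.9).

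The members and gene lists were chosen with earlier results of these data known, and the Hippo list and the TEAD motif after their values had been seen. Members named were the 20 with the highest peaks, those nearest a limit, those most changed in rev against 0h among called members (up to 5 in each direction, which gave 5 higher and 1 lower), the 5 with the smallest p for a clone difference, members of a list, and others chosen for their role with values known. Replicate numbers were not taken to pair libraries in the main model. Deviations of same-numbered libraries had a mean correlation of 0.01 (-0.318 to 0.210 over 12 pairs), which does not settle whether they were handled together. Values of 1 member are not reported here.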

Additional observations from a re-analysis of the deposited data

Results flagged for a closer look

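In 7 of the 200 groups of 4 libraries examined for 50 named genes, 1 library stood far from the other 3 by Dixon's ratio, which chance gives in about 1 in 20 groups. Ccn1 stood at 17.2 CPM in 2h clone 4 replicate 1, against 11.8 to 12.7 in the other 2h libraries. At 4h, Ccn1 stood at 6.6 CPM in clone 4 replicate 1, against 7.79 to 7.94. Lats2 stood at 5.49 CPM in 2h clone 8 replicate 1, against 6.11 to 6.21. Zfp36 stood at 3.41 CPM in 4h clone 4 replicate 1, against 6.31 to 6.84. Irak3 stood at 5.97 CPM in 0h clone 4 replicate 2, against 5.02 to 5.16. Csrnp1 stood at 14.7 CPM in 4h clone 8 replicate 2, against 25.1 to 26.8. Ulk1 stood at 279 CPM in 0h clone 4 replicate 1, against 224 to 230.5.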

How the results depend on the processing

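The number of members was 31 with library size alone, 14 with limits of 0.5, 213 in clone 4 only, and 162 with the 8 most abundant models removed, which held all 89. Leaving out 1 library gave 72 (without 2h clone 4 replicate 2) to 154 (without 2h clone 8 replicate 2), and 35 members were kept in all 16 such fits.

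With library size alone, the members higher in rev were 0 against 4h and 2 against 0h (0.467% and 0.86% of all genes), those lower than at 2h were 22 (1.49%), and the medians were -0.32, -0.0095 and -0.63 for rev against 4h, 0h and 2h (all genes -0.41, -0.32 and -0.32). The sign then reversed for Slc43a1 (-0.029), Smg5 (-0.15), Kmt5b (-0.16) and Taf5l (-0.17) against 4h, and for Taf5l (-0.0095) against 0h. Of the 39 genes it chose in clone 4, this scaling called in clone 8 5 higher at 2h, 1 lower at 4h, 1 both, 0 higher and 1 lower in rev than at 4h (0.0235% and 6.27% of eligible genes), and 1 higher and 15 lower than at 0h (0.247% and 49.4%). Of the 231 it chose in clone 8, it called in clone 4 20 higher at 2h, 0 lower at 4h, 0 both, 0 higher in rev than at 4h (0.176% of eligible genes), and 3 higher and 0 lower than at 0h (0.786% and 0.164%). For 4h against 0h it called 0 higher and 2 lower in clone 8 (0% and 5.13% of the 39, against 1.18% and 2.37% of eligible genes), and 60 higher and 0 lower in clone 4 (26% and 0% of the 231, against 13.5% and 0.552%). The cause was not tested.

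Without the clone term, 10 members were higher and 4 lower in rev than at 4h (3.42% and 3.79% of all genes), 21 higher and 0 lower than at 0h (7.17% and 4.72%), and 18 lower than at 2h (1.15%). With a log2 fold change of at least 1 required, these were 0, 2, 3, 0 and 9 (1.54%, 1.15%, 1.52%, 1.17% and 0.63%). With the percentage of the 8 most abundant models as a covariate, chosen after seeing the data, 8 were higher than at 4h (4.72%) and 4 lower than at 0h (9.1%). With only the 2 groups compared, 1 was higher than at 2h (5.69%). A fit of clone 8 alone called 2 genes lower in rev than at 4h. With the replicate block, 16 were higher and 9 lower than at 4h (7.67% and 8.28%), 31 higher and 1 lower than at 0h (12.3% and 9.54%), and 0 higher and 34 lower than at 2h (4.93% and 3.52%).

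Leaving out 1 library, members in rev were 12 to 17 higher and 6 to 11 lower than at 4h, 23 to 33 higher and 1 to 2 lower than at 0h, and 0 to 1 higher and 28 to 35 lower than at 2h, with medians of 0.07 to 0.13, 0.28 to 0.33 and -0.34 to -0.28. Genes chosen in clone 4 and called in clone 8 were then 43 to 63 (2h higher), 4 to 15 (4h lower), 4 to 13 (both), 1 to 11 and 1 to 4 (rev higher and lower than 4h), and 13 to 24 and 1 to 4 (than 0h). Genes chosen in clone 8 and called in clone 4 were 22 to 35, 5 to 21, 4 to 14, 5 to 8 and 5 to 10, and 8 to 17 and 0 to 1, in the same order. Of 79 calls of named genes in rev comparisons, 57 were lost under another scaling, filter, model or tool and 22 without some library. A limit of 1 on the log2 fold change, which removes smaller folds by construction, was the single loss of 11 others. For 4h against 0h these ranges were 13 to 36 higher and 3 to 13 lower in clone 8, and 15 to 26 higher and 2 to 6 lower in clone 4. Depth limits low members most, since 3 reads stood for up to 1.35 CPM.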
